A study of Mus musculus with 10 samples.

Results

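Transcripts of the CD3 complex and of other T-lineage genes were examined in mouse haematopoietic stem cells (HSCs) sorted by whether they carried Jam2, an immunoglobulin-family adhesion protein of cell junctions, on their surface. The set held 7 genes, chosen by symbol with earlier results of these data known: Cd3e, Cd3d, Cd3g, Thy1, Il2rg, Foxp3 and Cd40lg. Of these, 6 had a row with a single gene name in the final stretch of the table, from ID position 35784 to the last at 41345, where 2721 genes had such a row. Il2rg, the common gamma chain of several interleukin receptors, had none and was not analysed here. Each of the 6 remaining genes had 1 row. The differences, Jam2+ minus Jam2-, ran from -0.08 to 0.14 on the log2 scale. In limma, 0 of the 6 were called higher and 0 lower at an adjusted p of 0.05, where 0% of all rows were called in either direction and 4.08% had an unadjusted p under 0.05.

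The series held 10 single-colour arrays, 5 of Jam2+ and 5 of Jam2- HSCs, all from wildtype male mice of strain C57BL/6 SJL. In both groups the cells were lineage-negative, c-kit+, Sca-I+, CD150+ and CD48-, and no transgene or treatment was given in the labels. The replicate numbers were 1, 2, 4, 5 and 6 in each group, and the cells came from 5 mice in all. With 10 arrays, some must share a mouse, and the labels do not say which. The main tests treat all arrays as independent. Their p-values, standard errors and intervals therefore measure the spread between arrays, not between mice. Each sample is RNA of many cells. The genes of the sort, Jam2, Slamf1, Cd48, Kit and Ly6a, had no row among these IDs, so the sort could not be checked here. Across rows, the mean correlation with the other arrays was 0.970 for Jam2+ replicate 1 and 0.968 for Jam2- replicate 6, which thus stood apart from the remaining arrays at 0.976 to 0.980.

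CD3 epsilon, delta and gamma are the signalling chains that pair with the T cell receptor; without them the receptor is neither assembled at the surface nor able to signal through its cytoplasmic tyrosine motifs. They are switched on as progenitors commit to the T lineage in the thymus and serve as the defining surface marker of T cells. Thy1 (CD90) is a surface glycoprotein of T cells and thymocytes that mouse HSCs carry at low levels. Foxp3 is the transcription factor of regulatory T cells, and Cd40lg (CD154) is the ligand through which activated helper T cells stimulate B cells. The study's interest in the T-cell potential of Jam2+ HSCs raises the question of whether such genes already differed between the sorted stem cells.

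The deposited IDs are not in register with their values, so the identity of every row here is inferred: the IDs from position 35784 on, 13.5% of the table, were paired in file order with the values from the first row on. With that pairing the ribosomal protein IDs, of genes made in abundance by nearly all cells, had a median log2 value of 12.01 over 27 rows, and olfactory and vomeronasal receptor IDs, of sensory genes, had 3.63 over 140 rows. As deposited, the same IDs had medians of 5.91 and 5.09. A displacement shorter by 1 row gave the ribosomal IDs a median of 7.52, and a displacement longer by 1 row gave 6.59. The receptor IDs had medians of 3.61 and 3.68 at these displacements, so they did not tell the pairing from a shift by 1 row. Several of the 27 ribosomal rows had the same mean, so they may not all be separate readings. Of the 8 Y-linked genes listed, 6 had a row: Eif2s3y, Uty and Kdm5d had 8.85, 7.95 and 7.69, Sry had 6.37, and Zfy2 and Usp9y had 4.36 and 4.02. Xist, which coats the silenced X chromosome of females, had 4.61, in cells of male mice, so the Y-linked rows lay on both sides of it. The pairing was first noticed from family levels, so the ribosomal and receptor levels are no independent test of it.

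Around the 6 genes the IDs run along the chromosomes, each strand in turn, so the neighbours of each gene in the table are its neighbours in the genome. Cd3g and Cd3e lay on adjacent IDs. Counting back from Cd3g, the IDs were those of Ube4a, a ubiquitin ligase factor, Atp5l, a subunit of the mitochondrial ATP synthase, and Kmt2a, a histone methyltransferase. Their displaced rows had 8.75, 12.65 and 10.41, against 2.57, 4.50 and 9.72 on their own rows as deposited. Near Cd3d, Ddx6, an RNA helicase, had 10.67 and the ribosomal protein gene Rps25 had 9.54, against 6.83 and 8.16 as deposited. Other neighbours of Cd3d had nearly the same level either way: Hyou1 had 8.50 and 8.53 as deposited, Slc37a4 had 7.09 and 7.24, and Ift46 had 7.98 and 7.80. As deposited, Cd3g had 5.85 and Cd3e 3.70, beside 4.50 for Atp5l. These neighbours were picked after their values had been seen.

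**Figure D1:**
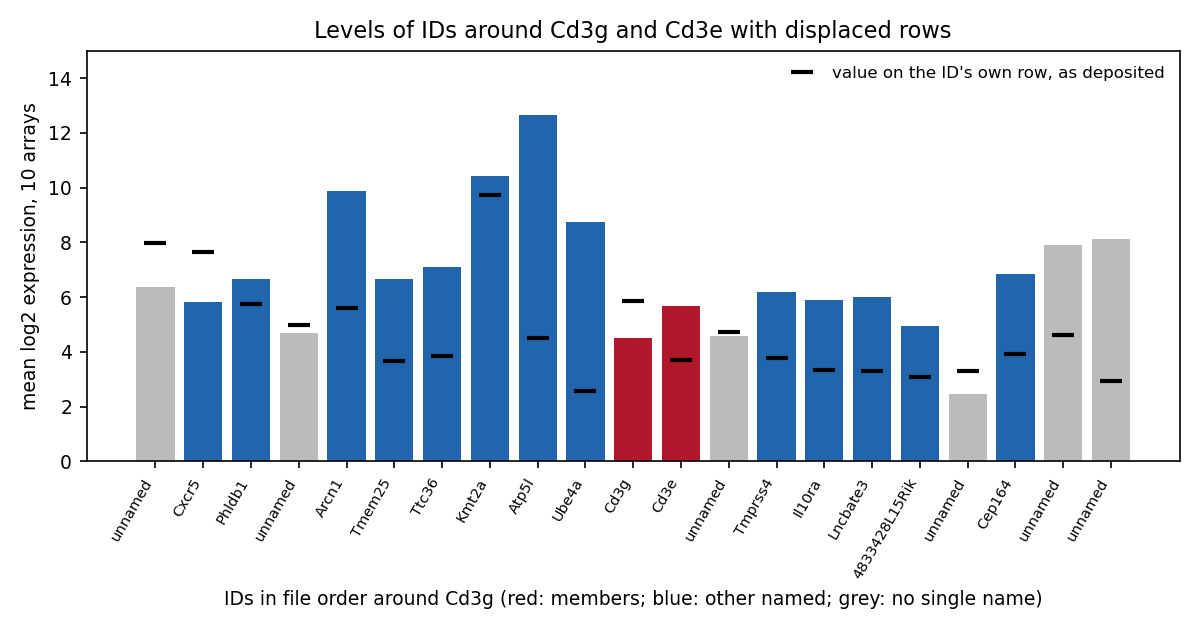
Mean log2 expression over 10 arrays for the IDs around Cd3g in file order; bars give the displaced row and black dashes the value on the ID's own row as deposited. Atp5l stands at 12.65 and Kmt2a at 10.41, while Cd3g and Cd3e, in red, stand at 4.49 and 5.68.

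The 3 CD3 genes share a position as well as a function, and Cd3g and Cd3d are transcribed away from each other. Sequence upstream of each is shown because the 3 chains work together but start from different promoters. Promoters of 5 of the 7 genes were found in RefSeq (GRCm38.p6); those of Thy1 and Cd40lg were not. The 120 bases directly before the outermost RefSeq start are printed 5′ to 3′, with capitals for GGAA on either strand (written TTCC on the other), the core letters bound by ETS factors, and for CANNTG, the E-box bound by basic helix-loop-helix factors. The windows are chr9:44980432-44980551 on the minus strand for Cd3g, chr9:44981649-44981768 on the plus strand for Cd3d and chr9:45009664-45009783 on the minus strand for Cd3e.
Cd3g: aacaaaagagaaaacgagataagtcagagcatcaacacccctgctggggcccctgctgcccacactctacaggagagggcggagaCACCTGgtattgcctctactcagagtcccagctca
Cd3d: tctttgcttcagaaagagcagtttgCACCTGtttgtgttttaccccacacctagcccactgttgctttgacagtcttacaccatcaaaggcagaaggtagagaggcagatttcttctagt
Cd3e: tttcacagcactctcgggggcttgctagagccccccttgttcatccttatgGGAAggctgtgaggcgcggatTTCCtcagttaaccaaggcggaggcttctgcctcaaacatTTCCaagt

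The Cd3g and Cd3d windows each held 1 E-box, CACCTG in both, and 0 GGAA cores. The Cd3e window held 3 GGAA cores and 0 E-boxes, and no base was shared by both motifs in any of the 3. The windows of Cd3g and Cd3d were 1097 bases apart. Among all 32851 promoters of the table, 73.4% held a GGAA core and 40.2% a CANNTG in the 120 bases before the start, so either motif is common. For these promoters the window was not moved to the outermost RefSeq start, as it was for the CD3 genes. The shares are thus a rough background. The letters are a description of the windows and no binding was measured.

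Cd3e encodes the epsilon chain, which pairs with both other chains. Its log2 value in Jam2+ HSCs was 5.40, 5.89, 5.78, 5.44 and 5.84 in replicates 1, 2, 4, 5 and 6. In Jam2- HSCs it was 5.73, 5.78, 5.60, 5.34 and 5.96 in the same order. Both groups spanned nearly the same interval, with replicates 1 and 5 low among Jam2+ arrays and replicate 5 low among Jam2- arrays. The means were 5.67 ± 0.23 (SD, n = 5) and 5.68 ± 0.23 (SD, n = 5). The difference, Jam2+ minus Jam2-, was -0.01 with a standard error of 0.139 and a 95% interval of -0.32 to 0.30 (limma adjusted p = 1.00). As a ratio, that interval runs from 0.804 to 1.23.

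The delta chain gene Cd3d had 5.29, 5.22, 5.22, 5.37 and 5.51 in Jam2+ HSCs, replicates in the same order. In Jam2- HSCs it had 5.12, 5.71, 5.39, 5.31 and 4.92. The Jam2- arrays held both the highest and the lowest value, replicates 2 and 6, and the Jam2+ arrays lay between them. The means were 5.32 ± 0.12 (SD, n = 5) and 5.29 ± 0.30 (SD, n = 5), and the difference of 0.03 had a standard error of 0.137 (limma adjusted p = 1.00). Its 95% interval was -0.27 to 0.34. Leaving out 1 array at a time gave differences of -0.06 to 0.14, and it was below 0 without Jam2- replicate 1 (-0.01), Jam2+ replicate 6 (-0.01) or Jam2- replicate 6 (-0.06).

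Cd3g, the gamma chain gene, had 4.44, 4.42, 4.52, 4.51 and 4.38 in Jam2+ HSCs. In Jam2- HSCs it had 4.57, 4.54, 4.47, 4.55 and 4.55. Jam2+ arrays lay lower except for replicates 4 and 5, which overlapped with Jam2- replicate 4, and Jam2+ was lower in 4 of 5 same-numbered pairs. Jam2+ minus Jam2- gave -0.08, with a standard error of 0.062 and a 95% interval of -0.22 to 0.06 (limma adjusted p = 1.00). The exact two-sided permutation test over all assignments of 5 arrays against 5 gave p = 0.0476, unadjusted and the only value under 0.05 among the 6 genes, while limma's unadjusted p was 0.230. The share of all rows under 0.05 in the permutation test was not computed, so this value has no background beside it. Limma's test draws each row's spread toward that of all rows: from the arrays of Cd3g alone the standard error would be 0.031. The pooled SD of Cd3g was 0.049, and 0% of the 2860 rows whose mean lay within 0.25 of its own had a smaller one. The ratio of Jam2+ to Jam2- had a 95% interval of 0.861 to 1.04, the narrowest of the 3 CD3 genes.

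Among the 3 CD3 genes, the differences were thus of both signs and each interval held 0. Over the 10 arrays, Pearson's r between pairs of the 3 genes ran from -0.30 to -0.11. These are descriptions over arrays of which some share mice, and 10 arrays are too few to fix r closely. No pair of the 3 rows had an r above 0.

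**Figure D2:**
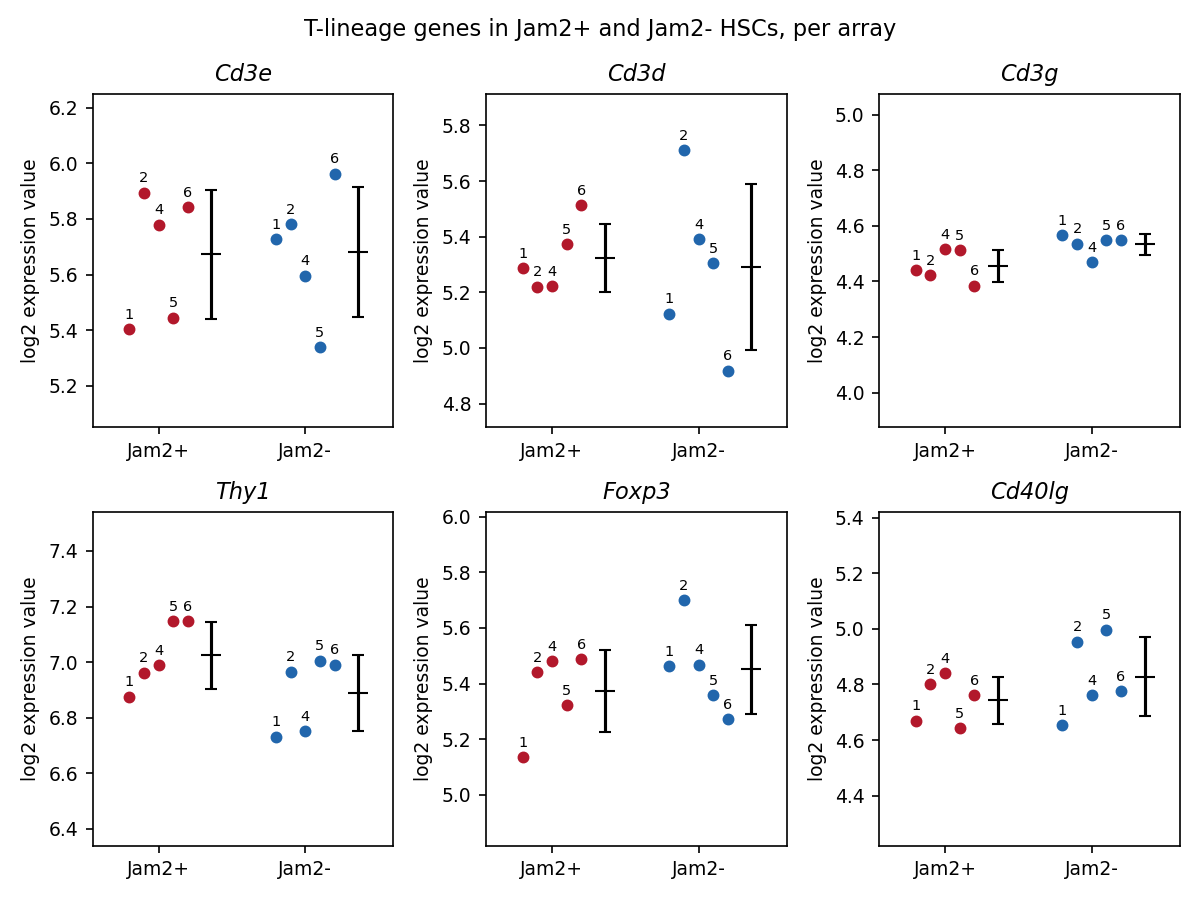
Log2 expression value of each gene on each array, with the replicate number above each point and the group mean ± SD (n = 5) in black; every panel spans the same 1.2 log2 units. The 2 groups overlap in all 6 panels, and Cd3g shows the narrowest spread, from 4.38 to 4.57.

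Thy1 had 6.88, 6.96, 6.99, 7.15 and 7.15 in Jam2+ HSCs, replicates in the same order. In Jam2- HSCs it had 6.73, 6.97, 6.75, 7.01 and 6.99. Replicates 5 and 6 of Jam2+ lay above every Jam2- array, and the other Jam2+ arrays lay within the Jam2- range. The means were 7.02 ± 0.12 (SD, n = 5) and 6.89 ± 0.14 (SD, n = 5). The difference of 0.14 had a standard error of 0.090 and a 95% interval of -0.06 to 0.33 (limma adjusted p = 1.00), with Jam2+ higher in 4 of 5 same-numbered pairs. Jam2+ was higher in 3 of 5 such pairs for Cd3e and Cd3d, and in 2 of 5 for Foxp3 and Cd40lg. Whether equal numbers mean a pair is not in the labels. The exact permutation p was 0.151, unadjusted. Of the 6 genes Thy1 had the largest difference in size, and 31.0% of all rows had a larger one. This difference was positive under 21 of 21 alternatives that kept the row, but several of them leave it unchanged by construction.

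Foxp3, the regulator of regulatory T cells, had 5.13, 5.44, 5.48, 5.32 and 5.49 in Jam2+ HSCs. In Jam2- HSCs it had 5.46, 5.70, 5.47, 5.36 and 5.27. Jam2+ replicate 1 was the lowest array and Jam2- replicate 2 the highest, with the other arrays of both groups intermixed. The means were 5.37 ± 0.15 (SD, n = 5) and 5.45 ± 0.16 (SD, n = 5). The difference of -0.08 had a standard error of 0.101 and a 95% interval of -0.30 to 0.14 (limma adjusted p = 1.00). Leaving out 1 array at a time moved it between -0.12 and -0.02.

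The helper-cell ligand gene Cd40lg had 4.67, 4.80, 4.84, 4.64 and 4.76 in Jam2+ HSCs. In Jam2- HSCs it had 4.65, 4.95, 4.76, 5.00 and 4.78. Jam2- replicates 2 and 5 lay above every Jam2+ array, and the other arrays overlapped. The means were 4.74 ± 0.08 (SD, n = 5) and 4.83 ± 0.14 (SD, n = 5). The difference of -0.08 had a standard error of 0.085 and a 95% interval of -0.27 to 0.10 (limma adjusted p = 1.00).

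Of the 6 genes, 0 passed an adjusted p of 0.05 in limma, 0 had an unadjusted limma p under 0.05, and 0 had groups that did not overlap. Over all 41345 rows the shares were 0% higher and 0% lower after adjustment (smallest adjusted p 0.562), 4.08% at an unadjusted p under 0.05 and 0.747% for groups that did not overlap. Without both arrays that stood apart, 0 were called, and the differences were 0.13 for Cd3e, -0.05 for Cd3d, -0.07 for Cd3g, 0.20 for Thy1, -0.07 for Foxp3 and -0.08 for Cd40lg. The median difference of the 6 genes was -0.04, beside 0.01 over the 2721 genes. The 6 intervals, each for 1 gene, ran from a ratio of 0.804 to one of 1.26. Larger differences in array value, in either direction, lay outside every interval, but separate intervals are no joint bound. In bulk RNA, fewer cells of a type and less RNA per cell cannot be told apart.

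Whether the genes were transcribed at all cannot be read from an array without a detection call. Brightness also differs between probes, so the places given next order rows by intensity, not genes by expression. The place of the 6 genes on the intensity scale is a rough guide. Cd3g, at a mean of 4.49, lay above 104 of the 140 receptor rows, and Cd40lg at 4.79 above 116. Cd3d at 5.31, Foxp3 at 5.41 and Cd3e at 5.68 lay above 125, 127 and 130 of them. All 5 were below 5.99, the 95th percentile of the receptor rows. Thy1 at 6.96 lay above 139 of the 140, and 66.6% of all rows had a lower mean. The receptor rows also served to check the row pairing, so these places are a description only.

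**Figure D3:**
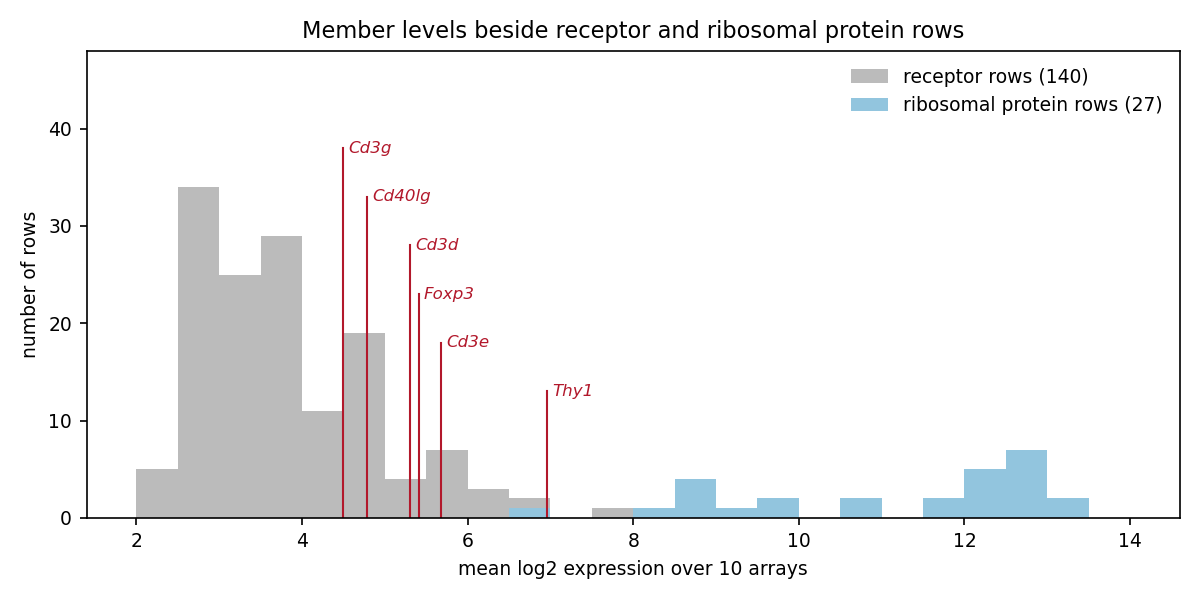
Number of rows by mean log2 expression over 10 arrays for 140 olfactory and vomeronasal receptor rows (grey) and 27 ribosomal protein rows (light blue), with red lines at the means of the 6 genes. The heights of the red lines carry no value; 5 of the 6 genes lie below 5.99, the 95th percentile of receptor rows, and Thy1 lies at 6.96.

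The list of T cell receptor signalling held 44 genes, of which 10 had a row here, 4 of them members. Among those that are not members, only Nck1 had a difference below 0. Over all 10, members included, 7 differences were above 0 and 3 below, with a median of 0.03, and 0 passed in either direction. Without both arrays that stood apart the median was -0.01. Was, the actin regulator lost in Wiskott-Aldrich syndrome, averaged 9.03 ± 0.14 (SD, n = 5) with Jam2 and 8.95 ± 0.15 (SD, n = 5) without it, which left 0.08 between them. Cbl, a ubiquitin ligase that damps receptor signalling, differed by 0.07, and Nck1, an adaptor between the receptor and the cytoskeleton, by -0.13. Csk, the kinase that restrains the Src-family kinase Lck, had 8.84 in both groups, with a difference of 0.01 (95% interval -0.21 to 0.23). These genes also serve in other blood cells, and each lay above all 140 receptor rows.

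For the common gamma chain axis, through which Il2rg acts, 4 of 25 genes had a row, with 2 differences above 0 and 2 below and 0 called. Cish, a feedback inhibitor induced by STAT5, averaged 9.28 ± 0.16 (SD, n = 5) with Jam2 and 9.17 ± 0.06 (SD, n = 5) without it, which left 0.12 between them; this is the brighter of its 2 rows, and the other, at 7.33, differed by -0.13. Socs3, another feedback inhibitor, differed by -0.27 with a standard error of 0.195, and its SD was 0.48 in Jam2+ against 0.06 in Jam2- arrays. Il15, a cytokine that signals through the gamma chain, had a mean of 8.43 in both groups.

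Among genes of helper and regulatory T cells, 11 of 28 had a row, Foxp3 and Cd40lg included. Of their differences 8 were above 0 and 3 below, the median was 0.02, and 0 passed. The chemokine receptors Ccr8 and Ccr4 had the largest positive values, 0.15 and 0.14, at levels of 4.12 and 4.34. Zbtb16, the PLZF factor of innate-like T cells, averaged 7.96 ± 0.12 (SD, n = 5) with Jam2 and 7.94 ± 0.38 (SD, n = 5) without it. The thymus list had 4 of 28 genes here, with 3 differences above 0, 1 below, a median of 0.05 and 0 called. Ccr9, a receptor used by progenitors that enter the thymus, differed by 0.13 with a standard error of 0.097. Ets1, an ETS factor of T cells, differed by 0.09, Tcf12, an E protein, by 0.01, and Itm2a, a membrane protein of thymocytes, by -0.03.

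Over the 4 lists, 29 genes had a row, of which 20 differences were above 0 and 9 below. Their median was 0.02, beside 0.01 over all 2721 genes, where 1416 differences were above 0 and 1305 below. Without the members, 18 of 23 were above 0 and 5 below, while the 6 members had 2 above and 4 below. The counts by direction were not tested. None of the 29 passed the adjusted threshold, where 0% of all rows did. An unadjusted limma p under 0.05 was seen for 0 of 29, where 4.23% of the 2721 genes had one. Groups that did not overlap were seen for 0 of 29, where 0.747% of all rows had them. At such shares, counts of 0 among 29 genes tell little.

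**Figure D4:**
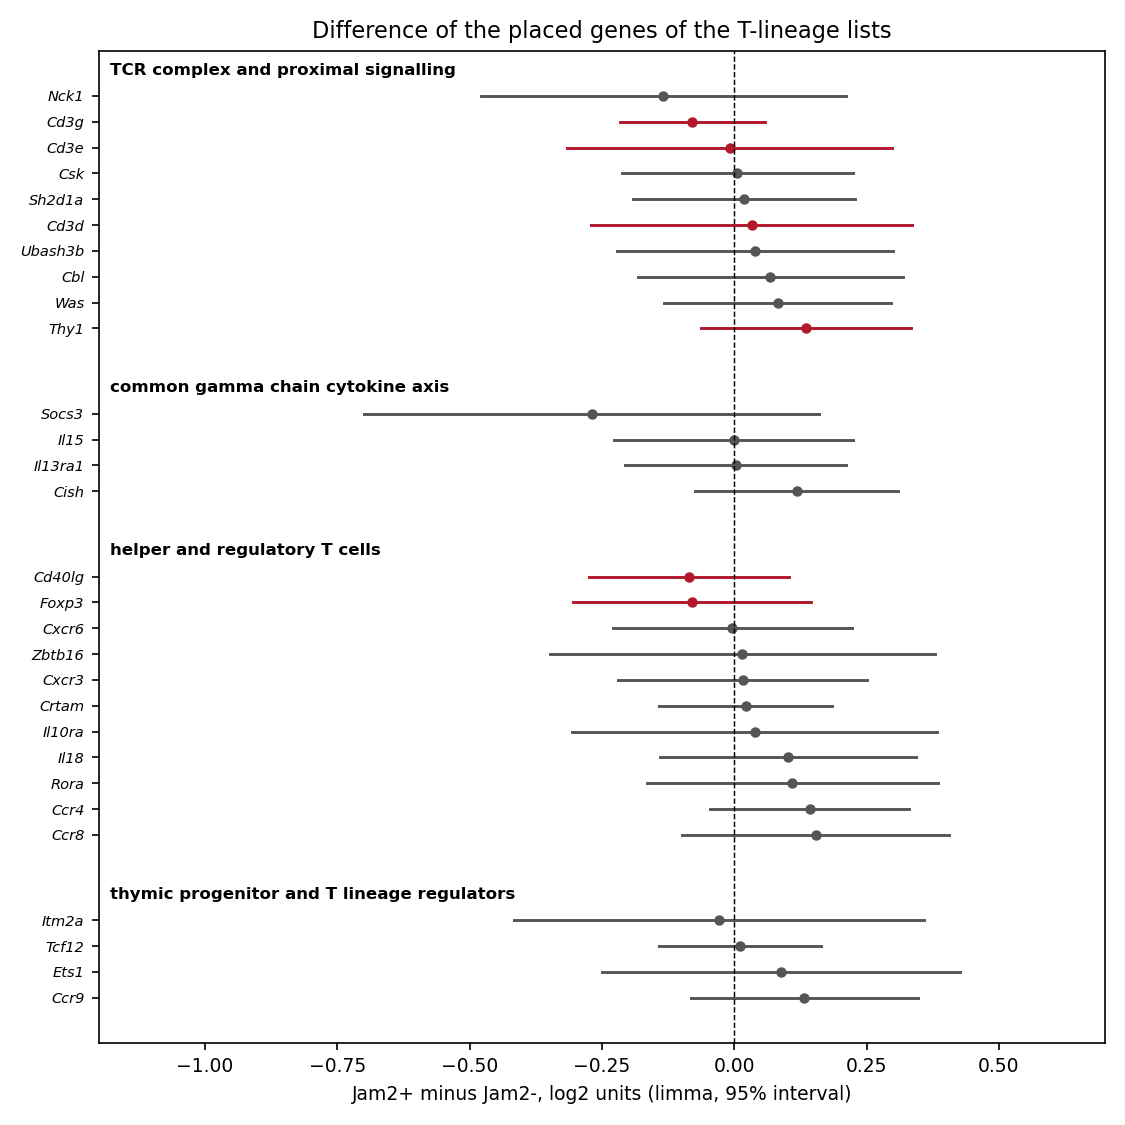
Difference in log2 expression, Jam2+ minus Jam2-, with limma's 95% interval for the genes of the 4 T-lineage lists that had a row; members are in red. All 29 intervals cross 0, and the widest belongs to Socs3, centred at -0.27.

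Markers of other blood cells were read from the same rows. For B cells 2 of 12 genes had a row and for NK cells 3 of 11, and the list means of the Jam2+ arrays ran from 6.90 to 7.27 and from 5.00 to 5.24, against 6.88 to 7.27 and 4.99 to 5.20 in Jam2- arrays. For macrophages and monocytes, 3 of 9 genes had a row, with means of 5.36 to 5.66 and 5.32 to 5.63. The 2 erythroid genes of 9 had 7.14 to 7.23 and 7.01 to 7.38, and the 2 megakaryocyte genes of 13 had 8.70 to 9.05 and 8.89 to 9.32. Those 2 lists share a gene, and the NK list shares genes with that of helper and regulatory T cells, so they are not separate readings. For mature neutrophils 4 of 11 genes had a row, and their mean was 5.15 to 5.24 in Jam2+ but 5.32 to 7.33 in Jam2- arrays, which did not overlap. Among single rows, 0.747% of all rows had groups that did not overlap, and no such share was taken for list means. The granule genes Camp and Ngp differed by -1.72 and -1.56 (limma adjusted p = 1.00 for both), and the spread lay among the Jam2- arrays. Of the same list, Ltf differed by -0.77 and Mmp8 by -0.13. The part of neutrophil RNA in the T-lineage values was not tested; the means of the 6 genes ran from 5.30 to 5.52 in Jam2+ and from 5.38 to 5.61 in Jam2- arrays, which overlapped.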

How the data were processed

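RNA was measured on 10 single-colour arrays. The deposited values are log2 expression values. Per the submitters' processing notes the R package oligo was used; no source used here gives its version, the background correction or the normalization. Array medians lay between 5.96 and 6.05, and row means cover the whole intensity range, so genes were not centred. By the platform's annotation, 23521 rows had a single symbol, 1814 had several and 16010 had none. Of the IDs from position 35784 on, 2872 had a single symbol and 397 had several.

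These IDs took the values from the first row of the table on, in file order, and the brightest row stood for a gene. A limma model (lmFit, eBayes) with only a group term was fitted to all 41345 rows, with Benjamini-Hochberg adjustment over all of them and a threshold of 0.05. For single genes an exact two-sided permutation test over all assignments of 5 arrays against 5 was added, whose smallest p is 0.00794. The procedure was tested on simulated data. The genes and lists were chosen with earlier results of these data known. Genes named are the members and, in each T-lineage list, those with the smallest p per direction, except Il13ra1 and Cxcr6, which were left out. Placed neutrophil, Y-linked and Xist genes are named, and markers of the other blood cells are given as list means only. The 3 most similar genes per member are also named. Neighbours of the members and a few further list genes were picked after their values were seen. Alternatives were the replicate block, arrays left out, variance models, array weights, scalings, filters, rows per gene, the family of tests, other row pairings and a threshold of 0.1. R 4.3.3, limma 3.58.1, Python 3.11.15, pandas 2.3.3 and matplotlib 3.10.9 were used. Arrays give no read depth, and their number limits the precision.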

Additional observations from a re-analysis of the deposited data

Results flagged for a closer look

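For each of the 6 genes and each of the 4 T-lineage list means, the highest and lowest array of each group were compared with the next array of that group by Dixon's ratio, with a critical value of 0.71. Of 20 groups of 5 arrays, 0 held an array that far out, where chance gives about 1.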

How the results depend on the processing

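The count of members called was 0 under 25 of 25 alternatives. Rows called lower were 0 under 21 of 21, and rows called higher were 0 under 20 of 21, with 0 to 1 when 1 array was left out; the 1 came without Jam2+ replicate 6, and it was not a member. With the replicate number as a block, 0 rows were higher, 0 lower and 0 members called. Arrays with the same number deviated from their group means with correlations of 0.114 (number 1), -0.020 (2), 0.009 (4), 0.050 (5) and 0.064 (6); for 4 of 10 arrays the closest array of the other group had its own number. Whether equal numbers mean a shared mouse is not in the labels, and these values leave the pairing unsettled. Under the alternatives that kept the row pairing, Thy1 (0.10 to 0.20), Cd3g (-0.11 to -0.06), Foxp3 (-0.12 to -0.02) and Cd40lg (-0.13 to -0.04) kept their sign. Cd3e (-0.09 to 0.13) kept it under 13 of 20 and Cd3d (-0.06 to 0.14) under 16 of 20. The replicate block, variance models, filters, rows per gene and the family of tests leave a member's difference unchanged by construction. Sign counts that include them are therefore higher than the data alone would give. The smallest limma adjusted p among the alternatives that kept the row pairing was 0.865, for Thy1. The lowest 50% filter removed every member but Thy1, and the lowest 25% filter removed Cd3g. With other row pairings, Thy1 gave 0.01 to 0.06 and Foxp3 0.00 to 0.19, since other rows are read. Median centring and quantile normalization moved the median difference of all rows from 0.01 to -0.01 and -0.00.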

Other observations

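The genes whose values followed each member most closely over the 10 arrays were sought among the other 2720 genes, as a description over arrays whose cells came from 5 mice in all. For Cd3e these were Cryab (Pearson's r 0.94), Eef1a1 (0.88) and Pate5 (0.87), and for Cd3d they were Olfr888 (0.91), Gorasp1 (0.88) and Arhgap27 (0.87). For Cd3g they were Gm7134 (0.87), Ift46 (0.82) and Shroom4 (0.81), and for Thy1 they were Smco4 (0.92), Slc37a2 (0.91) and Scn2b (0.87). For Foxp3 they were Dnm2 (0.91), I730028E13Rik (0.86) and Oxsr1 (0.85), and for Cd40lg 1700031F05Rik, Clec18a and Acpp, each at 0.80. These are the highest of 2720 values each, and no member was among the 3 genes nearest to another. Pate5 and Olfr888 had mean levels of 3.09 and 3.44, below the receptor rows' median of 3.63. The other nearest genes lay above that median. Between the 6 genes themselves, r over the 15 pairs ran from -0.30 to 0.59, with 5 pairs below 0.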
